A study of Arabidopsis thaliana with 236 samples.

Results

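The 150 loci described here were chosen from 27143 measured in Arabidopsis root cells because their RNA was higher in the late part of the light period than at dawn. The choice used measured values. In each cell type the mean of the 10, 12, 14 and 36 h groups was set against the mean of the 24 and 48 h groups, averaged over 3 treatments, and loci were ranked by the smaller of the 2 cell-type differences. The 10 evening clock genes TOC1, PRR5, PRR3, GI, ELF3, ELF4, LUX, BOA, ZTL and FKF1 were left out beforehand.

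The cells came from roots of accession Col-0 carrying a green fluorescent protein reporter in the pericycle, the layer from which lateral roots start, or in the cortex, a layer between epidermis and endodermis. All seedlings had grown for 9 days with 30 mM sucrose and 0.1 mM KNO3, under 16 h of light and 8 h of darkness a day. At dawn they received 5 mM KNO3 (nitrogen), the bacterium Sinorhizobium meliloti at OD600 0.8 with 0.1 mM KNO3 (rhizobium), or 0.1 mM KNO3 alone (standard). Roots were harvested before treatment (0 h) and at 13 later hours up to 48 h, turned into protoplasts and sorted. The single-colour arrays numbered 41 nitrogen, 42 rhizobium, 38 standard and 5 at 0 h for pericycle, and 32, 38, 37 and 3 for cortex, in 80 groups of 2 to 5 arrays. The labels do not name the promoters that drive the reporters, and they give an age of 12 days as well as the 9 days of growth. Hours are those of the sample titles: the record of the series has 7 h among its hours but omits both 8 h and 36 h.

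The plant clock is a loop of repressors: CCA1 and LHY accumulate at dawn and repress evening genes such as TOC1, whose products repress the morning genes in turn. Output genes such as GRP7 carry this timing to the rest of the cell. The nucleolus makes ribosomal RNA and assembles ribosomes, a costly process that in plants follows the supply of light and sugar. Both kinds of gene are found among the 150.

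By the values used for the choice, the median difference of the 150 loci was 1.06 log2 units in pericycle and 0.87 in cortex, against 0.03 in each cell type over all loci. Of all loci, 38.0% were positive in both cell types. The difference was 1 or more in both cell types at 22 loci. JMJD5, a jumonji-domain demethylase tied to the clock, headed the list with 2.04 in pericycle and 2.02 in cortex. It was followed by AT5G02050 (1.72 and 1.53) and AT1G23100 (1.79 and 1.47), for which the annotation used gives no symbol. The last 3 inside were RPL3P (smaller difference 0.7134), AT4G21950 (0.7133) and EMB2261 (0.7118), and just outside were AT3G15140 (0.7102), UPP (0.7098) and CLO4 (0.7089), so the border separates nearly equal values. With single replicate numbers left out of the rule, 79 to 96 of the 150 loci were chosen again, and 53 on the standard arrays alone.

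Of the 150, 144 were found in the RefSeq annotation and 46 had a symbol there. Mean levels ran from 5.36 to 13.45 log2 units. For 41 loci known functions were sorted into a few classes, which were drawn up after the values had been seen. The largest, with 14 loci, serves the nucleolus and ribosome making, and 10 loci serve gene expression in plastids and mitochondria. The others are 3 clock outputs (JMJD5, COR27, GRP7), 2 starch breakdown genes (SEX4, PWD), 3 genes of the Rubisco small subunit, 3 genes of small cysteine-rich proteins (LCR69, LCR68, PDF2.1) and 6 loci with mitochondrial or plastid identifiers. The remaining 109 were given no class, and some of them may serve the same functions. The class sizes are therefore not full counts of each function among the 150. Members that lie close together can share signal if their probes match several copies: 15 members formed 11 pairs within 5 genes of each other, 5 of them directly adjacent. The 11 pairs include RBCS1B, RBCS2B and RBCS3B, the LCR genes, and AT5G38930 and AT5G38940. Their values may not be independent. Nor may those of AT2G07777 and ATMG01090, a locus with a mitochondrial identifier. At 6 and 8 h against 0 h these 2 had -1.603 and -1.629 in pericycle, and -1.770 and -1.755 in cortex. AT3G61520, AT5G28460 and AT5G28370 are not among the pairs but had close values in some arrays. Their medians at 6 and 8 h were 10.09, 10.05 and 9.95 on pericycle standard arrays. On cortex rhizobium arrays they were 9.03, 9.86 and 10.65. Shared signal was not tested.

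The evening clock genes that had been left out behaved unevenly by the same measure. PRR3, a pseudo-response regulator, would have ranked second (1.86 in pericycle and 2.00 in cortex). ELF4 reached 0.76 and 0.45, below the border in cortex, and TOC1 reached 0.54 and 0.36, below it in both cell types. Of the 10 genes 6 were positive and 3 negative in both cell types. The 3 negative ones were GI (-0.54 in pericycle and -0.71 in cortex), ZTL (-0.83 and -0.41) and ELF3 (-0.33 and -0.21). BOA had 0.15 in pericycle and -0.53 in cortex. Among 12 other evening clock outputs and partners, 6 were positive in both cell types and 3 were members. Of 14 starch breakdown genes 11 were positive in both and 2 were members. None of 12 morning clock genes was positive in both, with medians of -1.76 in pericycle and -2.07 in cortex.

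The name under which the loci were grouped, as peaking late in the light, fits the hour of the highest mean for a small majority of them in pericycle and for a minority in cortex. Averaged over the 3 treatments, the highest hour was one of 10, 12, 14 or 36 h for 82 of the 150 loci in pericycle and for 30 in cortex. In cortex 72 loci were highest at 6 h and 19 at 4 h. In pericycle 39 were highest at 6 h, 38 at 10 h and 30 at 12 h. The lowest hour was 48 h for 72 loci in pericycle and 60 in cortex, and 1 h for 42 in each. The loci are therefore described below as loci higher in the late light than at dawn, with no single peak hour.

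**Figure D1:**
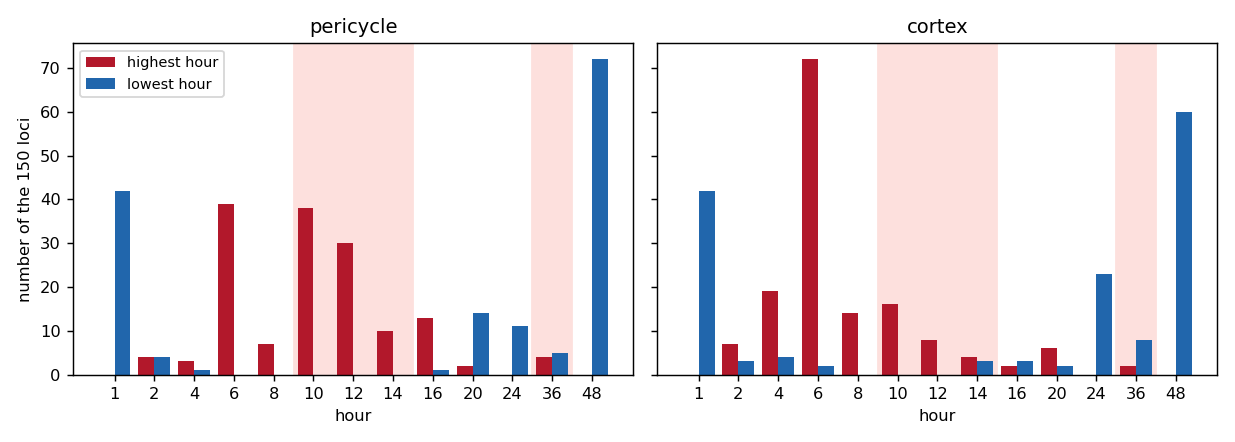
Number of the 150 loci (y axis) whose mean over the 3 treatments was highest (red) or lowest (blue) at each hour (x axis), in pericycle (left) and cortex (right). Shading marks 10, 12, 14 and 36 h, which the choice of loci used as late light: 82 loci were highest there in pericycle and 30 in cortex.

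On the second day the median excess at 36 h over the dawns, averaged over treatments, was 1.49 in pericycle and 2.07 in cortex in the class of 3 clock outputs, and 0.57 and 0.59 in the nucleolar class of 14. By treatment it was 1.55 on nitrogen, 1.16 on rhizobium and 2.60 on standard arrays for clock outputs in pericycle, and 1.57, 1.85 and 2.43 in cortex. For the nucleolar class it was 1.66, -0.75 and 0.58 in pericycle and -0.32, 1.72 and 0.14 in cortex. On pericycle nitrogen arrays the nucleolar median was thus the higher one, and on cortex rhizobium arrays the 2 classes lay close. JMJD5, averaged over treatments, stood at 8.37 log2 units at 12 h, 6.78 at 24 h, 8.49 at 36 h and 5.72 at 48 h in pericycle. In cortex it stood at 8.47, 6.34, 8.34 and 6.21 at the same hours. The level at 36 h thus came close to that at 12 h in both cell types. FIB2, which encodes fibrillarin, the methyltransferase of small nucleolar ribonucleoproteins, was at 12.64, 11.12, 10.81 and 9.60 at these hours in pericycle. In cortex FIB2 was at 10.79, 9.12, 10.06 and 9.66, and its highest cortex value was 12.52 at 6 h on the first day. For FIB2 the 36 h level lay below the 12 h level in both cell types.

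Over all 150 loci the median excess over the 2 dawns was 1.26 at 10 to 14 h and 0.63 at 36 h in pericycle, and 1.05 and 0.51 in cortex. The 36 h mean lay above both dawn means at 98 loci in pericycle and 115 in cortex. An excess of at least 1 at 36 h in both cell types was found at 4 loci: JMJD5 (2.24 in pericycle and 2.07 in cortex), AT2G33830, listed as dormancy associated gene 2 (2.08 and 1.68), COR27, a cold-regulated clock component (1.05 and 2.81), and ABF1, a transcription factor of abscisic acid signalling (1.21 and 1.01). The median 36 h excess was 1.30 on nitrogen, -0.13 on rhizobium and 0.52 on standard arrays in pericycle, and 0.12, 1.13 and 0.29 in cortex. These hours served to choose the loci, so the values are a description without a test.

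**Figure D2:**
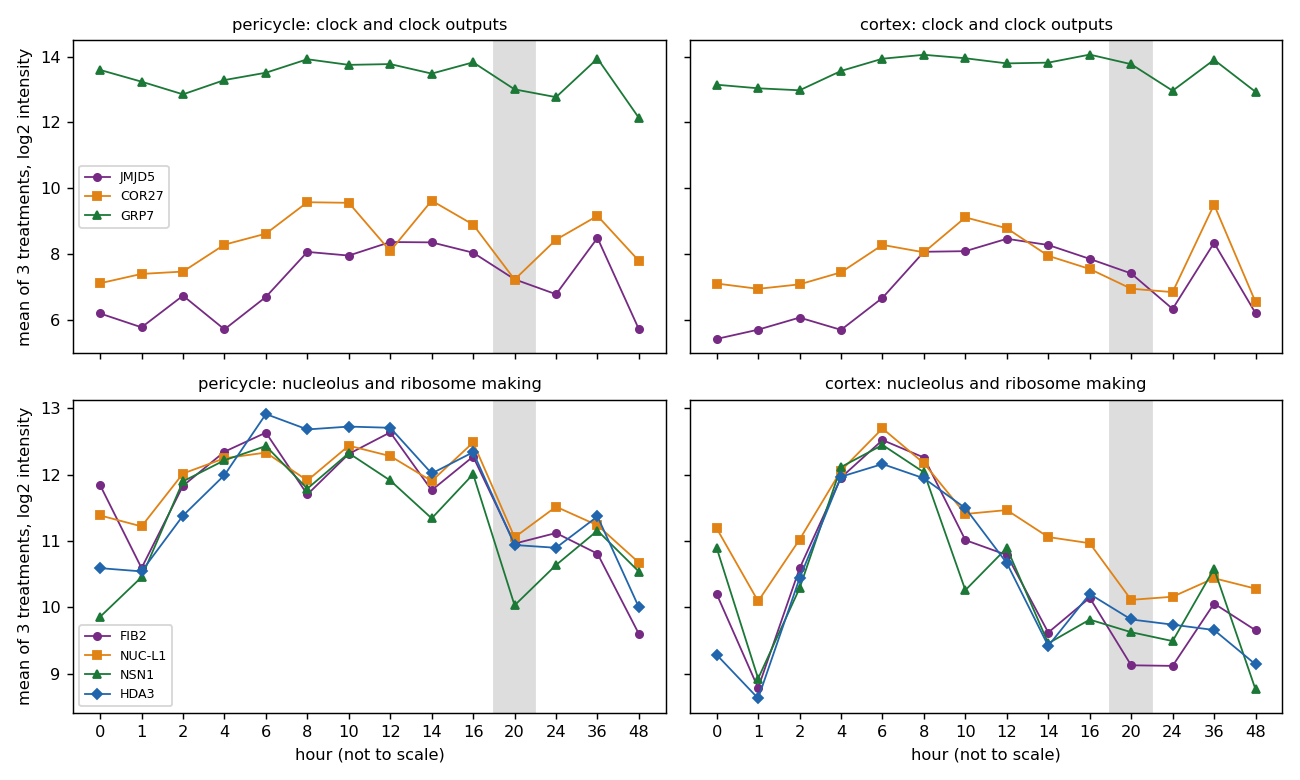
Mean log2 intensity over the 3 treatments (y axis) at each hour (x axis, not to scale) for clock outputs (top) and nucleolar genes (bottom), in pericycle (left) and cortex (right). The grey band marks 20 h, taken in the dark, and 0 h is before treatment. JMJD5 returned at 36 h to 8.49 in pericycle and 8.34 in cortex, while FIB2 was at 10.81 and 10.06.

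The measure that chose the loci varied among treatments. The median late-light excess of the 150 loci was 1.67 on nitrogen, 0.42 on rhizobium and 1.21 on standard arrays in pericycle. In cortex it was 0.59, 0.95 and 1.13. At 103 loci it was positive in each of the 6 combinations of cell type and treatment, at 39 in 5 and at 8 in 4. SNRK2.9, which encodes a protein kinase, had excesses of 1.56, 0.16 and 1.90 in pericycle and 2.19, 0.56 and 0.45 in cortex. The most frequent peak hour differed as well. In pericycle 48 loci were highest at 10 h and 35 at 16 h on nitrogen arrays, 53 at 6 h on rhizobium arrays and 84 at 12 h on standard arrays. In cortex it was 6 h in each treatment, with 55, 50 and 45 loci.

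The mean of the 150 loci was also taken in each array. In cortex at 8 h the 2 nitrogen arrays averaged 9.33, the 3 rhizobium arrays 8.65 ± 0.80 (SD) and the 3 standard arrays 10.23 ± 0.26. At 12 h the cortex rhizobium arrays averaged 7.96 ± 0.13, below each nitrogen array (8.51 and 10.1) and each standard array (8.77 to 10.92). In pericycle at 10 h the nitrogen arrays averaged 10.71 ± 0.32 (n = 3), the rhizobium arrays 9.55 ± 0.87 (n = 4) and the standard arrays 9.77 ± 0.35 (n = 3). One of the 4 pericycle rhizobium arrays at 24 h stood apart at 7.74, with the others at 9.38, 9.53 and 9.69. Without it, 135 of the 150 loci were chosen again.

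**Figure D3:**
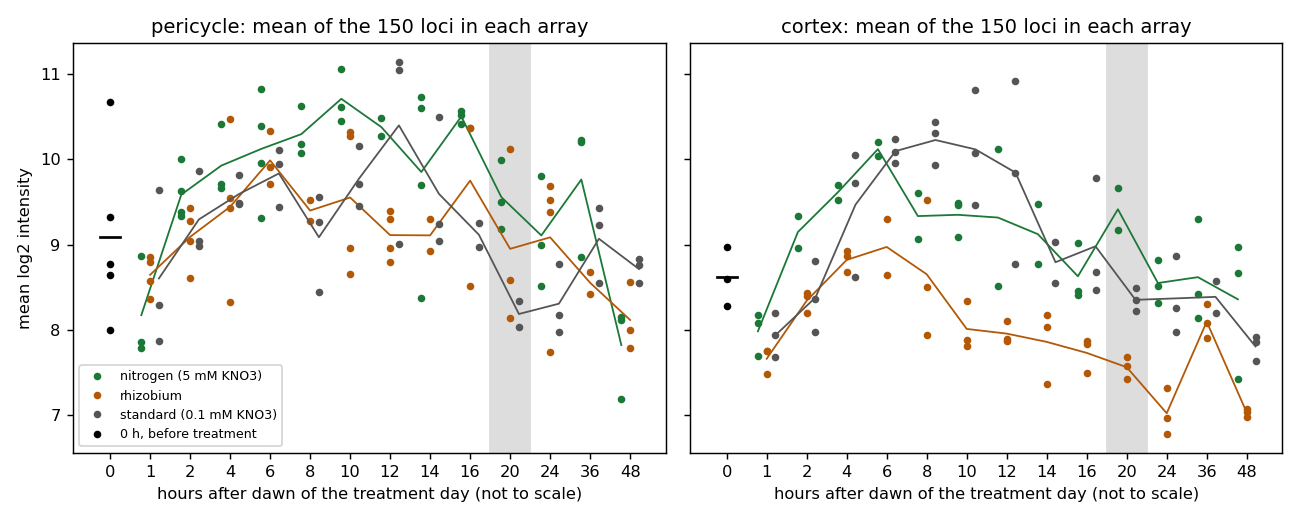
Mean log2 intensity of the 150 loci (y axis) in each array (points) and group (lines), by hour (x axis, not to scale), in pericycle (left) and cortex (right); the black bar is the 0 h mean. Cortex rhizobium arrays at 12 h averaged 7.96, below each nitrogen and standard array of that hour.

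Hours outside the choice allow tests. The mean of 6 and 8 h was set against that of 1 and 2 h over the 3 treatments with limma's moderated test on all 27143 loci, and a locus passed at an adjusted p below 0.05. In pericycle 46 of the 150 loci rose and none fell, where 4.49% of all loci rose and 7.43% fell. In cortex 73 rose and none fell, where 3.9% of all loci rose and 3.18% fell. The median log2 change was 0.90 in pericycle and 1.37 in cortex, against -0.04 and -0.06 over all loci. The 35 loci that rose in both were 76.1% of the pericycle calls and 47.9% of the cortex calls, and 66 loci passed in neither. Over all loci 333 rose in both, of 1219 in pericycle and 1059 in cortex. The 150 had been chosen for being high in both cell types, so nothing is read from their overlap. The difference of the rise between cell types passed at none of the 150 (0.103% of all loci were higher in pericycle and 0.0479% lower). At an unadjusted p below 0.05, 2 of the 150 were higher and 17 lower, against 9.07% of all loci in either direction. The labels do not say that replicates came from separate plantings, so p-values measure the spread between arrays. In sorted cells, a change in which cells were collected and a change of RNA per cell cannot be told apart.

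The rise was measured from a low start. The mean of the 150 loci was 9.09 ± 1.01 (n = 5) at 0 h in pericycle, where the group means at 1 h were 8.17 on nitrogen, 8.65 on rhizobium and 8.60 on standard arrays. In cortex it was 8.62 ± 0.35 (n = 3) at 0 h and 7.98, 7.66 and 7.94 at 1 h. With 0 h in place of 1 and 2 h, 20 loci were higher and 4 lower in pericycle (7.36% and 12% of all loci), and 4 were higher and none lower in cortex (0.63% and 0.416%). The median against 0 h was 0.67 in pericycle, with 114 of the 150 loci above 0, and 0.94 in cortex, with 120 above 0. The matching values over all loci are not given here, so these counts are a description only. The 4 higher in cortex were JMJD5, AT1G33790, AT5G38930 and AT5G38940, and each was also among the 20 in pericycle. ATCG00020 and AT4G21950 were among the 4 lower in pericycle. The 0 h groups have 5 and 3 arrays, against 21 and 17 arrays at 1 and 2 h. From 1 and 2 h to the 0 h baseline, the share of all loci that were higher went from 4.49% to 7.36% in pericycle. In cortex it went from 3.9% to 0.63%. The cause of the smaller counts among the 150 was not tested. Without the standard arrays 54 loci passed in pericycle and 19 in cortex, and with single replicate numbers left out the counts ran from 6 (without number 1) to 25 in pericycle and from 31 (without number 2) to 59 in cortex.

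Among the clock outputs, JMJD5 and GRP7 rose in both cell types. JMJD5 ranged from 5.03 to 9.44 (median 7.45) over 18 pericycle arrays at 6 and 8 h, against 4.81 to 8.49 (median 6.14) over 21 arrays at 1 and 2 h. The 2 sets overlap, but 16 of the 18 later arrays lay above the earlier median. The change was 1.13 ± 0.27 log2 (SE, adjusted p = 0.003) in pericycle and 1.48 ± 0.30 (adjusted p = 3e-04) in cortex by limma. GRP7, an RNA-binding protein that feeds back on its own transcript, ranged from 13.83 to 14.28 over 15 cortex arrays at 6 and 8 h, against 11.34 to 14.42 over 17 arrays at 1 and 2 h. All 15 later arrays lay above the earlier median, and the change was 0.99 ± 0.19. COR27 rose in pericycle (1.66 ± 0.40) and missed the threshold in cortex (1.15 ± 0.44, adjusted p = 0.091).

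Of the nucleolar class 12 of 14 loci rose in cortex (median 2.32) and 7 of 14 in pericycle (median 1.11). FIB2 ranged from 10.65 to 13.61 (median 12.68) over 15 cortex arrays at 6 and 8 h, against 6.44 to 12.23 (median 9.21) over 17 arrays at 1 and 2 h. Of the later arrays 9 lay above the highest earlier one, and the change was 2.71 ± 0.42 (adjusted p = 9.8e-07). In pericycle FIB2 had 0.96 ± 0.38 and missed the threshold (adjusted p = 0.082). NUC-L1, which encodes nucleolin, rose by 1.88 ± 0.33 in cortex and had 0.50 ± 0.30 in pericycle (adjusted p = 0.27). NSN1, a nucleostemin-like GTPase, rose by 2.64 ± 0.51 in cortex and IMP4, a small-subunit processome protein, by 3.11 ± 0.66. HDA3 and HDT4, plant-specific HD2 histone deacetylases, the first of them nucleolar, rose in both cell types, by 1.84 and 1.61 in pericycle and by 2.52 and 1.56 in cortex. AT1G67120, listed as midasin, the ATPase that matures the large ribosomal subunit in yeast, rose by 1.92 ± 0.45 in pericycle and 2.73 ± 0.49 in cortex. NRPC2, the second largest subunit of RNA polymerase III, which makes transfer RNA and 5S ribosomal RNA, rose by 1.47 in pericycle and 2.03 in cortex. The class was drawn up after these values were seen, so its counts are not independent support.

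**Figure D4:**
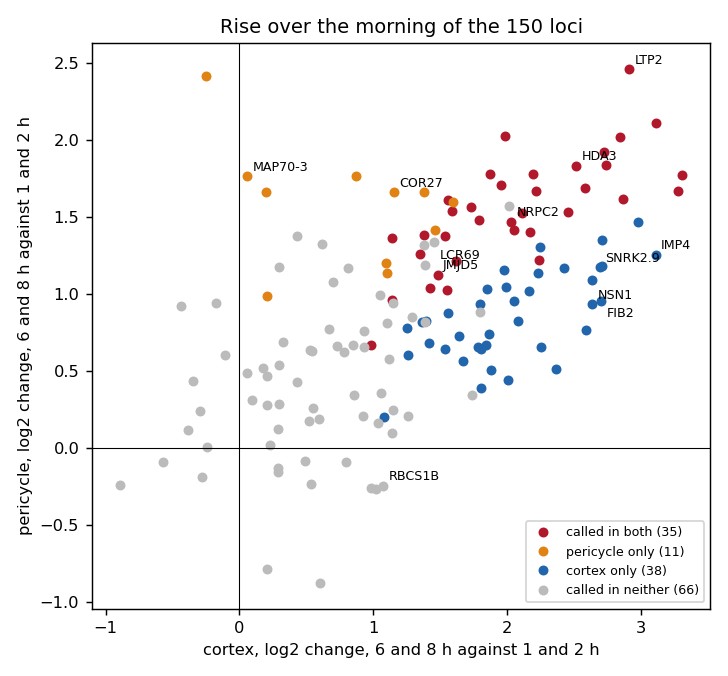
Log2 change of each of the 150 loci at 6 and 8 h against 1 and 2 h in pericycle (y axis) and cortex (x axis). Colours show calls at an adjusted p below 0.05: 35 loci in both, 11 in pericycle only, 38 in cortex only and 66 in neither.

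Some close relatives outside the 150 rose as well. FIB1, the second fibrillarin gene, rose by 0.85 in pericycle (adjusted p = 0.043) and 1.64 in cortex (adjusted p = 0.00018). HD2B rose by 1.33 in cortex (adjusted p = 0.00022), and NRPA1, the largest subunit of RNA polymerase I, by 1.42 in pericycle and 2.17 in cortex. Probes of such copies can share signal. Not all relatives rose in both cell types. NUC-L2 (0.29 in pericycle and 0.79 in cortex) and HD2C (0.35 and 0.63) passed in neither. HD2B missed the threshold in pericycle (0.64). NRPA2 and NRPC1 rose in pericycle (1.24 and 0.87) and missed it in cortex (1.28 and 0.44). Further families moved unevenly too. MAP70-3, a microtubule-associated protein, rose by 1.76 ± 0.36 in pericycle and had 0.06 in cortex. MAP70-4, also one of the 150, rose by 0.99 in pericycle (limma, adjusted p = 0.042) and had 0.21 in cortex. MAP70-1, MAP70-2 and MAP70-5 had 0.175, 0.44 and 0.98 in pericycle without passing. Of 9 genes on the array with an SNRK2 symbol SNRK2.9 was the one member, and it rose by 2.70 ± 0.56 in cortex. SNRK2.3 rose by 0.70 in pericycle and 1.01 in cortex. PHB4, a prohibitin of the mitochondrial inner membrane, rose by 1.22 ± 0.29 in pericycle and 1.62 ± 0.32 in cortex.

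Of 10 loci for organelle gene expression, 3 rose in pericycle (median 1.04) and 6 in cortex (median 1.52). MORF4, an RNA editing factor, rose by 1.66 ± 0.43 in pericycle. GR-RBP2, a mitochondrial RNA-binding protein, rose by 1.22 ± 0.39 in pericycle and 2.24 ± 0.43 in cortex. AT5G48470, listed as PRDA1, a partner of the plastid RNA polymerase, ranged from 5.03 to 10.52 over 15 cortex arrays at 6 and 8 h, against 4.26 to 6.08 over 17 arrays at 1 and 2 h. Of the later arrays 12 lay above the highest earlier one, and the change was 2.98 ± 0.60. The 6 loci of the organelle genomes themselves did not pass in either cell type (medians 0.63 and 0.48). Neither did the 3 Rubisco genes (medians 0.09 and 1.08) and the 3 cysteine-rich protein genes (medians 0.64 and 0.54).

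SEX4, a phosphoglucan phosphatase needed for starch breakdown, rose by 1.03 ± 0.35 in pericycle and 1.55 ± 0.38 in cortex. PWD, a glucan kinase that prepares starch granules for attack, rose by 1.54 ± 0.36 in cortex, where it ranged from 8.80 to 10.91 in 15 arrays at 6 and 8 h, against 5.88 to 9.29 in 17 arrays at 1 and 2 h. Of the 14 starch breakdown genes, 2 rose in pericycle and 7 in cortex. GWD1, the other glucan kinase of the path and no member, rose by 1.63 in pericycle and 1.26 in cortex. Of the 10 evening clock genes left out, 4 rose and 1 fell in pericycle and 5 rose in cortex. ELF4 rose by 1.23 in pericycle and 2.04 in cortex, while TOC1 had 0.05 and -0.12 and did not pass. Of 12 morning clock genes 9 fell in pericycle and 7 in cortex. None of the 9 heat shock genes passed: their mean was 10.02 at 6 and 8 h and 10.41 at 1 and 2 h in pericycle, and 11.08 and 11.20 in cortex. Among cell markers, 1 of 9 epidermis and 1 of 7 pericycle and stele genes rose and 1 of the latter fell in pericycle, while 2 of 7 pericycle and stele genes and 1 of 6 green tissue genes rose and 1 of 5 xylem genes fell in cortex. Of the 3 cortex markers 1 fell in each cell type. The part of these genes in the rise was not tested.

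Split by treatment, the rise passed at 42 loci on nitrogen, 2 on rhizobium and 2 on standard arrays in pericycle (4.29%, 0.372% and 0.0442% of all loci rose). In cortex it passed at 10, 2 and 67 (2.34%, 0.07% and 2.88%). Medians of the change were 1.29, 0.79 and 0.49 in pericycle and 1.20, 0.70 and 2.08 in cortex. The difference between treatments was itself tested and seldom passed. The nitrogen rise minus the standard rise passed at none in pericycle (0.0442% of all loci were higher and 0.151% lower), with 18 of the 150 higher and 3 lower at an unadjusted p below 0.05, against 11.9% of all loci in either direction. In cortex it was lower at 3 loci and higher at none (0.567% and 0.203%). At an unadjusted p below 0.05, 3 of the 150 were higher and 23 lower there, against 12.6% of all loci in either direction. The median of this difference in cortex was -0.67, and 111 of the 150 were below 0. The rhizobium rise minus the standard rise passed at none in pericycle (0% and 0.00368%) or in cortex (0.0111% and 0.0921%). Unadjusted, 5 of the 150 were higher and 2 lower in pericycle, against 6.07% of all loci in either direction. In cortex 1 was higher and 26 lower, against 5.92%.

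The 3 loci that passed for the nitrogen minus the standard rise in cortex were RBCS3B, ATCG00020 and ATCG01120. RBCS3B, a Rubisco small subunit gene, was at 14.02, 9.18, 13.01 and 7.80 in cortex nitrogen arrays at 6 and 8 h, against 13.49, 12.77, 11.84, 13.79 and 11.74 at 1 and 2 h. On standard arrays it was between 11.40 and 13.45 at 6 and 8 h (n = 6), against 7.26, 7.52, 12.62, 8.50, 6.72 and 7.98 at 1 and 2 h. In the nitrogen arrays each of the later hours held 1 high and 1 low array. The difference of the 2 rises was -5.87 ± 1.53 (limma, adjusted p = 0.033). For the plastid locus ATCG00020 it was -3.84 ± 0.89 (adjusted p = 0.0085) and for ATCG01120 -3.28 ± 0.88 (adjusted p = 0.04). Without replicate number 2 none of the 150 loci passed this test, and without number 1 7 did. The green tissue list, which holds RBCS1B, ran from 6.60 to 13.72 among single cortex arrays at 6 and 8 h, and its part in these differences was not tested.

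The dark hour, 20 h, was set against 16 h, the end of the light period. In pericycle the median change of the 150 loci was -0.88, against 0.04 over all loci, and 133 loci were below 0. Above 0 were 17 of the 150, against 53.2% of all loci. AT1G56050 fell (-2.68 ± 0.68, adjusted p = 0.035) and AT4G21950 rose (2.00 ± 0.47, adjusted p = 0.025), where 0.103% of all loci fell and 0.409% rose. Unadjusted p-values below 0.05 were found for 45 lower and 2 higher of the 150 loci, against 13.7% of all loci in either direction. AT4G21950 ranged from 5.57 to 8.79 in 8 arrays at 20 h, against 4.61 to 6.33 in 8 arrays at 16 h, and AT1G56050 from 5.61 to 10.03, against 6.93 to 10.81. With a replicate number left out neither passed. In cortex no locus passed (0% of all loci), with a median of -0.05. At an unadjusted p below 0.05 there were 2 higher and 2 lower, against 2.68% of all loci. By treatment the cortex median was 0.72 on nitrogen, -0.18 on rhizobium and -0.65 on standard arrays, with 114, 63 and 35 loci above 0. The nitrogen minus standard difference in cortex had a median of 1.36 and passed at none of the 150. Unadjusted, 11 were higher and none lower, against 3.54% of all loci. For rhizobium minus standard 3 were higher and 1 lower, against 2.32%. The difference between the cell types passed at none (0% of all loci), with 1 of the 150 higher and 18 lower unadjusted, against 7.86% of all loci.

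Treatments were compared over the 7 hours the choice did not use, 1, 2, 4, 6, 8, 16 and 20 h. In cortex 55 of the 150 loci were lower and 1 higher on rhizobium than on standard arrays, where 8.14% of all loci were lower and 9.54% higher. Their median change was -0.83, against 0.04 over all loci. In pericycle 5 loci were higher and none lower (8.86% and 6.34%), with a median of 0.19. Markers moved there as well: 3 of 9 endodermis and 6 of 9 epidermal genes were higher, and their part was not tested. The pericycle minus cortex difference of this response, a test added after the values were seen, passed at 44 loci with a positive sign and at 1 with a negative sign, where 11.7% and 11.3% of all loci did. The same added test for nitrogen against standard passed at 10 loci with a positive and 1 with a negative sign (4.14% and 5.73% of all loci), and for nitrogen against rhizobium at none and 11 (0.656% and 2.57%). Without replicate number 3 these 3 tests passed at 10, 3 and 0 loci in all, and the pericycle comparison with standard arrays at 0.

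THI1, the thiazole synthase of thiamine making, ranged from 4.86 to 10.36 (median 6.00) over 20 cortex rhizobium arrays, against 5.57 to 13.14 (median 10.26) over 21 standard arrays. Of the rhizobium arrays 19 lay below the standard median, and the change was -3.29 ± 0.54 (adjusted p = 7.7e-07). All 3 Rubisco genes were lower, among them RBCS1B (-2.42 ± 0.62) and RBCS2B (-2.14 ± 0.63), as were 5 of the 6 organelle genome loci. ATCG00020 ranged from 8.11 to 12.12 on rhizobium arrays, against 9.71 to 14.88 on standard arrays, with a change of -2.54 ± 0.32 (adjusted p = 4.2e-11) in cortex and 1.01 ± 0.32 in pericycle. Of the nucleolar class 8 of 14 were lower in cortex (median -0.92), among them FIB2 (-1.66 ± 0.37), and none of the 3 clock outputs passed (0.05 to 0.59). The one higher locus was AT3G22560, with 2.28 ± 0.52.

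The cortex standard arrays carried another difference. The mean of the 9 heat shock genes over these hours was 9.93 ± 0.86 on nitrogen (n = 16), 9.68 ± 1.00 on rhizobium (n = 20) and 13.37 ± 1.13 on standard cortex arrays (n = 21), and all 9 were lower in both treatments. In pericycle it was 9.86, 9.93 and 10.46. Of the 6 green tissue genes 4 were lower on cortex rhizobium than on standard arrays (median -1.55). Their part in the values of the 150 loci was not tested. Without replicate numbers 2 and 3 in turn, 21 and 18 loci passed in cortex.

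Nitrogen against rhizobium does not use the standard arrays. In cortex 39 of the 150 loci were higher on nitrogen and none lower (5.49% and 2.65% of all loci), with a median of 0.91, against -0.01 over all loci. LCR69, a defensin-like protein, ranged from 5.92 to 14.06 (median 10.73) over 16 nitrogen arrays, against 5.03 to 10.02 (median 6.90) over 20 rhizobium arrays. Of the nitrogen arrays 9 lay above the highest rhizobium array, and the change was 3.14 ± 0.54 (adjusted p = 5.5e-05). The other 2 cysteine-rich protein genes and the 3 Rubisco genes were higher too, PDF2.1 by 2.44 ± 0.40 and RBCS2B by 3.04 ± 0.68. Of the nucleolar class 6 of 14 were higher (median 1.29), HDA3 by 2.33 ± 0.52 and NUC-L1 by 1.19 ± 0.31. Without replicate number 2 the count was 8, without number 3 it was 17, and without 1 and 2 h it was 24. Of the 6 green tissue genes 3 were higher and none lower in this comparison, and 1 of 9 heat shock genes was higher. Of the cell markers 1 of 3 root cap, 1 of 3 cortex and 1 of 7 pericycle and stele genes were higher, 1 of 9 epidermal genes was lower and none of 9 endodermis genes passed. The mean of the root cap list was 7.19 on nitrogen and 6.43 on rhizobium arrays, that of the cortex list 9.70 and 9.13, and that of the endodermis list 7.21 and 6.69. The part of these lists in the comparison was not tested. In pericycle 1 locus was higher and 1 lower (0.755% and 0.829%), with a median of 0.44, and with a replicate number left out at most 1 passed.

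**Figure D5:**
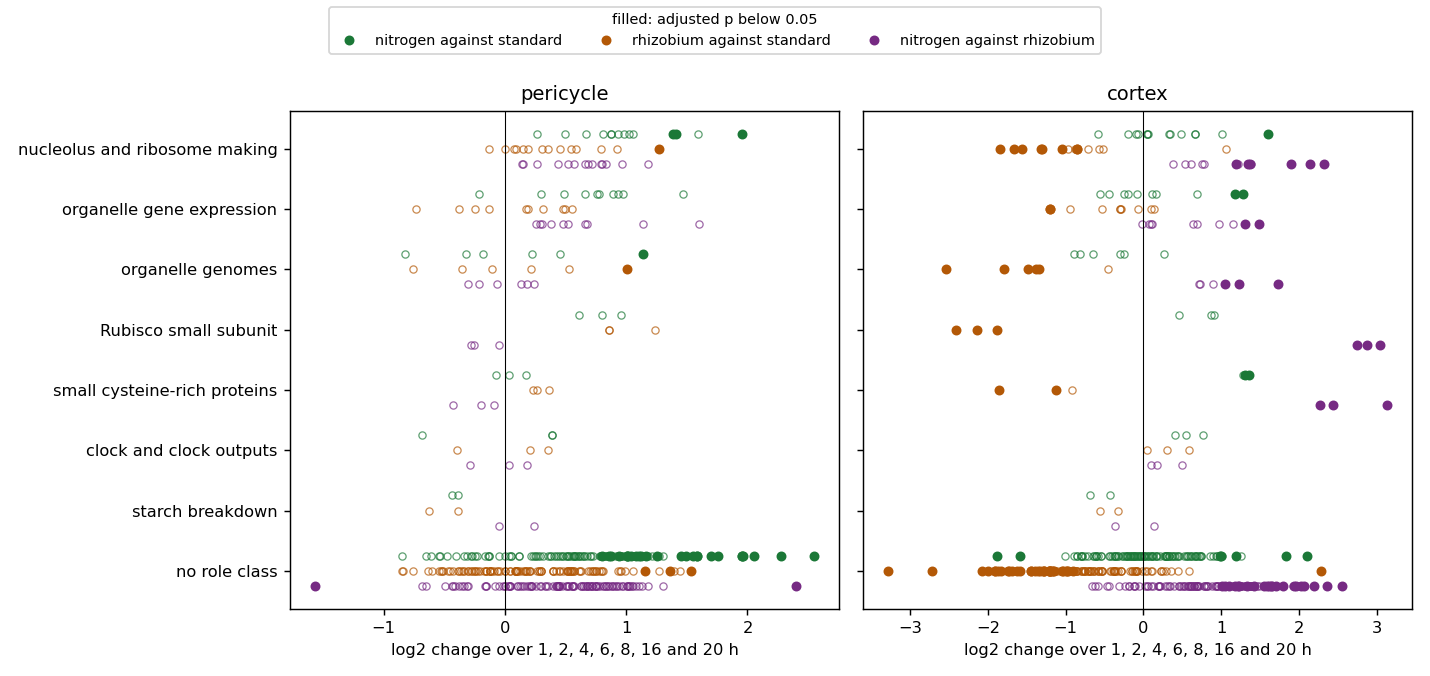
Log2 change of the 150 loci (x axis) between treatments over 1, 2, 4, 6, 8, 16 and 20 h, by class (rows), in pericycle (left) and cortex (right); filled points passed an adjusted p of 0.05. In cortex 55 loci were lower on rhizobium than on standard arrays and 39 were higher on nitrogen than on rhizobium arrays.

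On nitrogen against standard arrays 30 of the 150 loci were higher and none lower in pericycle, where 4.47% and 6.57% of all loci were. The median was 0.66, against 0.03 over all loci. HDT4 ranged from 6.53 to 12.93 (median 11.26) over 23 nitrogen arrays, against 7.23 to 10.995 (median 9.32) over 19 standard arrays. Of the nitrogen arrays 14 lay above the highest standard array, and the change was 1.95 ± 0.39 (adjusted p = 0.00017). AT2G27775 was higher by 2.55 ± 0.56, the neighbours AT5G38930 and AT5G38940 by 2.05 and 1.96, and SNRK2.9 by 1.95 ± 0.49. In cortex 10 were higher and 2 lower (12.8% and 8.94%), with a median of 0.06, so the share of loci that passed there was below that of all loci. The 2 lower were THI1 (-1.88 ± 0.58) and AT3G07590 (-1.59 ± 0.61), and AT2G28790 was higher by 2.11 ± 0.52. With a replicate number left out 7 to 16 loci passed in pericycle and 5 to 6 in cortex. In pericycle 1 of 9 endodermis and 2 of 9 epidermal markers were higher, 2 of 7 pericycle and stele markers were higher and 1 lower, and 1 of 9 heat shock genes was lower. In cortex 2 of 3 root cap and 4 of 7 pericycle and stele markers were higher. Their part was not tested.

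Over the same hours and treatments 77 of the 150 loci were higher and 11 lower in pericycle than in cortex, where 19.1% and 20.5% of all loci were. The median was 0.55, against 0.00 over all loci. Of the nucleolar class 13 of 14 were higher (median 0.81). LCR69 ranged from 9.43 to 14.59 (median 13.15) over 65 pericycle arrays, against 5.03 to 14.06 (median 8.74) over 57 cortex arrays. Each pericycle array lay above the cortex median, and the change was 4.17 ± 0.29 (adjusted p = 4.5e-27). LCR68 was higher by 3.32 ± 0.23 and PDF2.1 by 2.66 ± 0.22. The 3 Rubisco genes were lower in pericycle, among them RBCS1B (-1.62 ± 0.36), as was THI1 (-1.34 ± 0.32). Without replicate number 2 the total of 88 loci was 57.

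Markers of several cell types differed between the sorted populations. Of 7 pericycle and stele markers 4 were higher and 2 lower in pericycle, and 2 of 3 cortex markers were lower there. Of markers of other cells, 7 of 9 endodermis genes (median 2.32), 8 of 9 epidermal genes (median 1.16), and all 3 phloem and all 3 root cap genes were higher in pericycle, while 5 of 6 green tissue genes were lower (median -1.59). Their part in the cell-type differences of the 150 loci was not tested.

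Within groups of arrays the deviations of most of the 150 loci were positively correlated. The median correlation of a locus's deviation from its group mean with the mean deviation of the other 149 was 0.46 over 125 pericycle arrays and 0.36 over 110 cortex arrays, as a description. In the nucleolar class the medians were 0.71 and 0.54, and for the clock outputs 0.29 and 0.02. These arrays share the scaling applied to each of them.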

How the data were processed

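RNA of sorted root cells was hybridised to 236 custom single-colour arrays. The deposited table holds log2 intensity values normalised by RMA, per the submitters' processing notes; no source used here gives a version or the mapping of probes. Its 31524 rows were reduced to 27143 loci by averaging the 3675 loci with several rows. Values ran from 3.69 to 15.53, and array medians from 8.44 to 9.23. One pair of pericycle standard arrays at 16 h was nearly identical (r = 0.9992, SD of the difference 0.117 log2 units, against 0.6824 for the next closest of 244 pairs) and was counted as 1, which left 235.

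Groups came from the sample titles. In limma 3.58.1 (R 4.3.3) each of the 80 groups had its own mean (155 residual and 3.04 prior degrees of freedom), with Benjamini-Hochberg adjustment over all loci and a threshold of 0.05. Tests used hours that had no part in choosing the loci. The fitting steps were tested on simulated data. The loci, gene lists and tests were chosen with earlier results of these data known, and the functional classes after the values had been seen. Genes were named by rule: the 15 with the largest value of the choosing measure, the 3 on each side of its border, genes of the fixed lists, and for each test the 5 with the largest changes in each direction that passed. Others named were chosen after their values were seen. The labels do not say that replicate numbers pair arrays, and residuals of same-numbered arrays had mean correlations from -0.0249 to 0.0472 between treatments within a cell type and from 0.0048 to 0.0172 between cell types within a treatment and hour (16 of 105 pairs above 0.1). Alternatives were other scalings, row choices, filters, weights, hours and left-out arrays. Symbols came from RefSeq. The number of arrays limits the precision. Promoter motifs were not analysed here.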

Additional observations from a re-analysis of the deposited data

Results flagged for a closer look

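The mean of the 150 loci in replicate 1 of the pericycle rhizobium group at 24 h was 7.739, against 9.689, 9.383 and 9.528 in the other arrays of that group. Its gap to the nearest array was large for a group of 4. Of 10 groups large enough to examine, 1 held such an array, and chance marks about 1 group in 20. Dawn values at 24 h entered the choice of loci, and 135 of the 150 were chosen without this array.

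Responses that differed between groups by a test of the difference itself were the following. In cortex the rise to 6 and 8 h on nitrogen minus that on standard arrays differed at 3 loci, RBCS3B (-5.87), ATCG00020 (-3.84) and ATCG01120 (-3.28). The pericycle response minus the cortex response differed at 11 loci for nitrogen against standard (10 positive and 1 negative, where 4.14% and 5.73% of all loci were), at 45 for rhizobium against standard (44 and 1, where 11.7% and 11.3% were) and at 11 for nitrogen against rhizobium (all negative, where 0.656% of all loci were positive and 2.57% negative). For nitrogen against standard the share of the 150 in both directions together was no larger than that of all loci. These last 3 tests were added after the values had been seen.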

How the results depend on the processing

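Of 909 repeats of 81 gene results under alternative settings, 741 kept direction and side of the threshold, 166 kept the direction but missed it, 1 newly passed and 1 turned its direction: PHB4 in cortex had -0.0187 with 0 h in place of 1 and 2 h. Numbers of loci that passed moved by over 1.5 times as follows, and the causes were not tested. For 6 and 8 h against 1 and 2 h, the 73 in cortex became 4 with the 0 h baseline and 19 without standard arrays, and the 46 in pericycle became 24 with the 0 h baseline (20 higher and 4 lower) and 30 when pericycle was fitted alone. For 20 h against 16 h in pericycle, 2 became 4 with the near-identical arrays kept as 2, 1 without the dimmest 20% of loci, 0 when fitted alone and 12 with array weights. Array weights also gave 1 for the pericycle minus cortex night difference, 1 for the cortex nitrogen minus standard night difference, 9 in place of 0 for the cortex rhizobium minus standard rise, and 86 in place of 56 for cortex rhizobium against standard. Cortex fitted alone gave 20 in place of 12 for nitrogen against standard, 63 in place of 39 for nitrogen against rhizobium and 5 in place of 3 for the nitrogen minus standard rise, which was 1 with array weights. Without 1 and 2 h the first 2 of these were 4 and 24. Pericycle fitted alone gave 17 in place of 30 for nitrogen against standard, 3 in place of 5 for rhizobium against standard and 0 in place of 2 for nitrogen against rhizobium, which was 1 with array weights. The 5 became 10 with centred arrays, 9 with array weights and 1 without 1 and 2 h. The pericycle nitrogen minus standard rise passed at 1 locus in place of 0 with the brightest row per locus, with the near-identical arrays kept as 2, without the dimmest 20% or with a replicate block, and at 2 with array weights. With a replicate block, pericycle against cortex passed at 41 loci in place of 88. The choice of loci shared 79 of 150 loci without standard arrays, 53 on standard arrays alone and 135 without the single low 24 h array. With each replicate number left out, counts ran from 31 to 59 and from 6 to 25 for the rise in cortex and in pericycle, and were 0 for the pericycle night. For cortex treatments they ran from 5 to 6 (nitrogen against standard), 18 to 51 (rhizobium against standard), 8 to 34 (nitrogen against rhizobium) and 0 to 7 (nitrogen minus standard rise). For pericycle treatments they ran from 7 to 16, 0 to 6 and 0 to 1, and for pericycle against cortex from 57 to 78. The pericycle minus cortex treatment differences ran from 1 to 6, 10 to 42 and 0 to 12, and the choice of loci shared 79 to 96.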

Other observations

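Of 7 prohibitin genes, all had late-light values above dawn in both cell types, where 38.0% of all loci did. PHB4 was the one chosen. The measure is the one that chose the loci, and in cortex it ran from 0.07 (PHB7) to 0.91 (PHB4). PHB1 rose by 1.61 in cortex at 6 and 8 h (adjusted p = 0.00036 by limma) and had 0.74 in pericycle (adjusted p = 0.088). At the same hours PHB2, PHB3 and PHB6 passed in neither cell type. PHB5 (-0.28 in pericycle and -0.25 in cortex) and PHB7 (-0.01 and -0.30) were below 0. Of 44 genes with symbols of ribosomal proteins, 35 were above dawn in both cell types and 2 were chosen. Their medians were 0.43 in pericycle and 0.20 in cortex, against 0.03 in each cell type over all loci.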
